A study of Mus musculus with 12 samples.

Results

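Ythdf1, Ythdf2, Ythdf3, Ythdc1 and Ythdc2 encode the YTH domain proteins, the readers that bind N6-methyladenosine (m6A) in RNA. Their mRNAs were taken by gene name from a table of read counts, as 5 of its 48440 genes, and all 5 passed the filter on low counts that left 14488 genes to test. The table held 12 RNA sequencing libraries of mouse primary hepatocytes, 2 for each genotype at 0, 2 and 6 h of actinomycin D, a drug that blocks transcription, so that the fall of an mRNA can be followed. Mettl3 cKO cells came from Mettl3 flox/flox mice crossed with Alb-Cre mice, in which Cre driven by the albumin enhancer and promoter deletes exons 2 to 4 of Mettl3, whose product is the methylating subunit of the m6A writer complex, in hepatocytes. Control cells, which the sample labels call WT, came from mice without that deletion. Mice of both genotypes had a C57BL/6J background, and all cells were cultured for 16 h and then given 5 µM actinomycin D. The age of the mice for these cultures was not given in the sources used here. Nor was it stated whether the 2 replicates of a group were separate mice or cultures, so that p-values cover only how far these libraries spread, possibly for technical reasons alone.

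The YTH domain is a fold with a pocket of aromatic residues that holds the methylated adenosine. Ythdf1, Ythdf2 and Ythdf3 are cytoplasmic paralogues, of which Ythdf2 is best known for bringing the CCR4-NOT deadenylase to methylated mRNA, Ythdf1 was described as a promoter of translation in human cells, and Ythdf3 acts with both. Ythdc1 is nuclear and takes part in splicing and export of methylated RNA, and Ythdc2 is a cytoplasmic RNA helicase needed for meiosis in mouse germ cells. The methyl group is placed mostly within the consensus DRACH, of which GGACT is a common form, and most often near the stop codon.

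The coding sequences of Ythdf1 and Ythdf2 each held GGACT shortly before the stop codon, and these windows are shown because they hold the GGACT nearest to the stop codon within the coding sequences of the 2 genes whose mRNA levels differed most between the genotypes. Only coding sequences were searched. Capitals mark the 5 bases of the consensus or, in Ythdf3, the bases aligned to them, and all sequences are in the transcript's direction, 5′ to 3′, from the Gencode transcripts on mm10.
Ythdf1, chr2:180910956-180910984, minus strand: gaagtcccctgtGGACTacggcaccagcg
Ythdf2, chr4:132204401-132204429, minus strand: gaaatctgctgtGGACTacaacacatgtg
Ythdf3, chr3:16205127-16205155, plus strand: gaagtctgttgtAGACTataatgcttatg
The windows lay in exon 5 of Ythdf1, exon 4 of Ythdf2 and exon 5 of Ythdf3, with the 5 bases 305, 302 and 302 bases before the stop codon in turn. Ythdf1 and Ythdf3 each matched Ythdf2 at 21 of 29 bases, and Ythdf3 had AGACT, another form of the DRACH consensus, in place of GGACT. The only GGACT in the coding sequence of Ythdf3 lay 1174 bases before its stop codon.
Ythdf3, chr3:16204255-16204283, plus strand: caaggcatgactGGACTgaaaattggtgg
By coding length, GGACT occurred 0.569 times per kilobase in Ythdf1, 1.15 in Ythdf2, 0.559 in Ythdf3, 0 in Ythdc1 and 0.692 in Ythdc2, searched on the transcript strand. Over 21504 genes with a complete coding sequence the median was 1.03 per kilobase, and 72.2% held at least 1 GGACT. A match is only a run of letters, since methylation was not measured in these libraries.

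The 3 Ythdf coding sequences were alike, with 70.4% of aligned bases identical between Ythdf1 and Ythdf2, 71.6% between Ythdf2 and Ythdf3 and 71.2% between Ythdf1 and Ythdf3. Their most alike stretch of 60 bases is shown because it bears on whether reads could be counted for the wrong gene, with the 13 bases that are not the same in all 3 in capitals.
Ythdf1, chr2:180911117-180911176, minus strand: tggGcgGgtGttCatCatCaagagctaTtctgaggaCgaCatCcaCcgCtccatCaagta
Ythdf2, chr4:132204562-132204621, minus strand: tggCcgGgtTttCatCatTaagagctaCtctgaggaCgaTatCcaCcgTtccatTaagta
Ythdf3, chr3:16204935-16204994, plus strand: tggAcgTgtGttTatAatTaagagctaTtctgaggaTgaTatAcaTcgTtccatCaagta
No run of 31 bases was shared between any of the 5 genes. Of the 31-base runs of Ythdf2, 12.7% also occurred in other genes, mostly in Gm6823 and Gm8401, which each had 0 or 1 read in every library. For Ythdc1 the share was 7.0%, with a long noncoding RNA gene that overlaps it on the same strand, Gm43055, at 0 reads in all libraries. Only reads with a single mapping position were kept, so reads lying wholly within shared runs could be dropped. How reads over overlapping genes were assigned was not stated. These low counts thus cannot show that the look-alike genes gave no reads.

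Total counts ran from 16952084 to 20914516 per library. Mettl3 had 28.5 to 33.4 CPM (reads per 1000000 of the library total) in Control at 0 h against 22.6 to 23.2 in Mettl3 cKO, a log2 difference of −0.47 (SE 0.10, edgeR's quasi-likelihood test, adjusted p = 3.30e-04). It was not called lower at 2 h (24.2 to 25.5 CPM in Control, 24.0 to 25.8 in Mettl3 cKO, log2 difference −0.11, adjusted p = 0.358), and at 6 h it was higher in Mettl3 cKO (13.7 to 15.0 against 19.4 to 24.2 CPM, log2 difference 0.31, adjusted p = 0.0154), which goes against the label. Counts over the whole gene include exons outside the deletion and so do not check it, and Control and Mettl3 cKO here mean the libraries so labelled. All 8 hepatocyte markers had at least 10 reads in every library, and their summed CPM went from 49839 to 51107 at 0 h up to 93406 to 101142 at 6 h in Control, against 45758 to 48816 and 61158 to 61215 in Mettl3 cKO. The part of this rise in the CPM falls of other genes was not tested. The Control libraries of 6 h stood apart from the other 10, with 16565 and 20246 reads of Xist against at most 6, and 0 and 1 read of the Y-linked Ddx3y against at least 2440, so that the sex of the cells and the time point cannot be told apart there. Slope differences and Control half-lives of the YTH domain genes, and list counts, are given with and without those libraries. Slope differences of other genes, slope medians, values at 6 h and values for 2 to 6 h have no counterpart without them.

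Ythdf2 mRNA was higher in Mettl3 cKO than in Control at every time, and in Control it fell further than any other of the 5 mRNAs. Ythdf2 lies on the minus strand of chromosome 4, from 132184912 to 132212303 (mm10). In Control it had 78.7 and 77.4 CPM at 0 h, 17.3 and 18.8 at 2 h, and 5.43 and 6.32 at 6 h, the last from 113 and 126 reads. In Mettl3 cKO it had 227 and 227 CPM at 0 h, 202 and 201 at 2 h, and 171 and 167 at 6 h. The lowest Mettl3 cKO library of the time course thus lay above the highest Control library, and the mean CPM of the genotypes differed 2.91-fold at 0 h, 11.1-fold at 2 h and 28.8-fold at 6 h. On the log2 scale with TMM, which sets aside shifts that most genes share, the difference was 1.50 (SE 0.060) at 0 h, 3.36 (SE 0.071) at 2 h and 4.56 (SE 0.083) at 6 h (edgeR's quasi-likelihood test, adjusted p = 2.47e-16, 3.87e-22 and 1.18e-23). Among the 14488 genes this was the 608th largest increase at 0 h, the 142nd at 2 h and the 164th at 6 h.

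**Figure D1:**
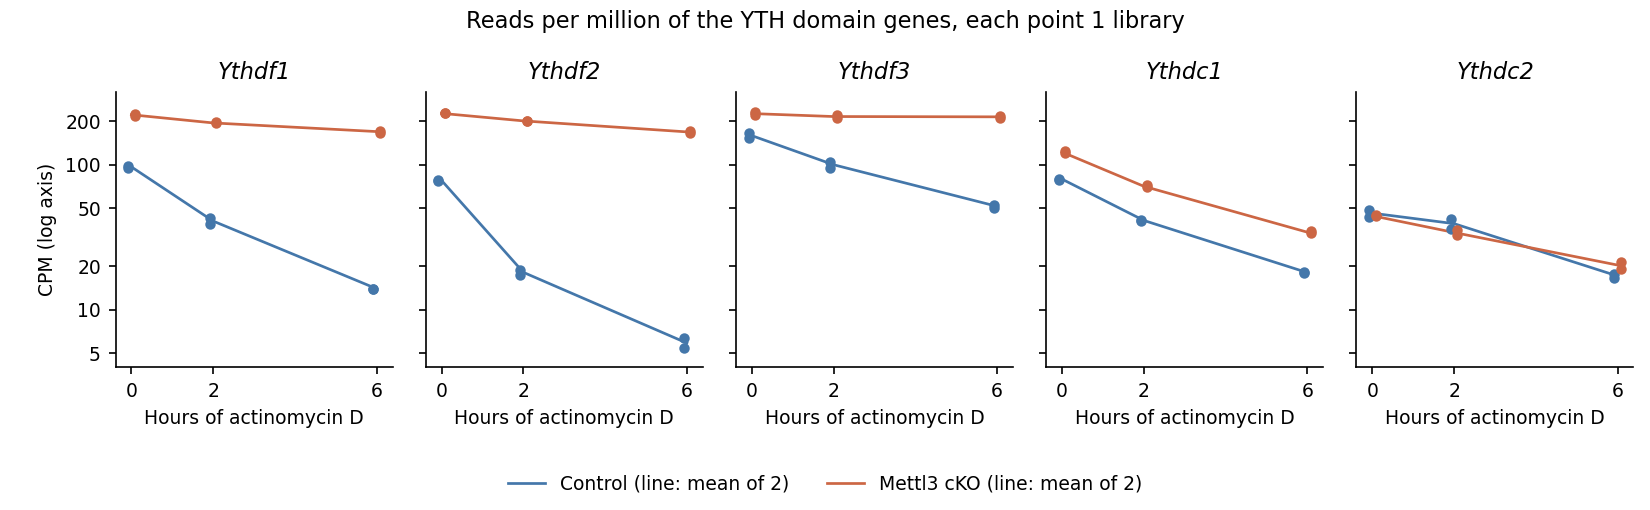
CPM (log axis) of the 5 YTH domain genes against hours of actinomycin D, with each point 1 library and lines through the means of 2. Ythdf2 in Control drops from 78.0 to 5.87 CPM while the means in Mettl3 cKO go from 227 to 169 CPM, whereas both genotypes of Ythdc1 fall side by side and those of Ythdc2 lie close together.

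The fall of Ythdf2 in Control was steepest at the start. Its level dropped by 2.11 on the log2 scale from 0 to 2 h (SE 0.070) and by 1.62 over the longer interval from 2 to 6 h (SE 0.097), which left 23.2% and then 7.53% of the mean CPM of 0 h. In Mettl3 cKO it dropped by 0.17 (SE 0.055) and 0.25 (SE 0.055), and 74.5% of the mean at 0 h was left at 6 h. A straight line over the 3 times gave −0.62 log2 per hour in Control, a half-life of 1.60 h (95% interval 1.37 to 1.94 h, or 0.948 h from the change over 0 to 2 h alone), against −0.070 in Mettl3 cKO (95% interval −0.16 to 0.018), which did not pass the test against no fall (edgeR's quasi-likelihood test, adjusted p = 0.165). Half-lives here and below are relative to the library total, and their intervals do not cover the choice of scaling or of time points. For every YTH domain gene the Control half-life from 0 to 2 h alone lay outside the interval of the straight line. It was shorter for Ythdf1, Ythdf2, Ythdf3 and Ythdc1 and longer for Ythdc2. Both falls in Mettl3 cKO were past the threshold with total counts only, since with TMM they were −0.079 and −0.090 (adjusted p = 0.277 and 0.221). That of the first interval also lost its call without Mettl3 cKO 0 h replicate 1 (−0.17, adjusted p = 0.0590), 2 h replicate 1 (−0.17, adjusted p = 0.0653) or 2 h replicate 2 (−0.17, adjusted p = 0.0787).

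Ythdf1 mRNA was also higher in Mettl3 cKO than in Control at every time, but in Control it fell less than Ythdf2. Ythdf1 lies on the minus strand of chromosome 2, from 180904377 to 180920949. In Control it had 98.7 and 95.2 CPM at 0 h, 42.7 and 39.1 at 2 h, and 13.9 and 13.9 at 6 h. Its values in Mettl3 cKO were 218 and 226 CPM at 0 h, 196 and 194 at 2 h, and 167 and 173 at 6 h. All 6 Mettl3 cKO libraries were above all 6 Control libraries. The genotypes differed on the log2 scale by 1.16 (SE 0.057), 2.14 (SE 0.062) and 3.32 (SE 0.070) at 0, 2 and 6 h (edgeR's quasi-likelihood test, adjusted p = 1.21e-14, 1.64e-19 and 1.23e-22). At 6 h 14.4% of the mean CPM of 0 h was left in Control and 76.5% in Mettl3 cKO. The slopes corresponded to half-lives of 2.17 h in Control (95% interval 1.98 to 2.41 h) and 16.0 h in Mettl3 cKO (95% interval 9.83 to 43.5 h), and the change over 0 to 2 h alone gave 1.61 h in Control. Its falls in Mettl3 cKO, by 0.19 from 0 to 2 h and by 0.20 from 2 to 6 h, passed the test with total counts and not with TMM (−0.094 and −0.036, edgeR's quasi-likelihood test, adjusted p = 0.174 and 0.643). The former was also lost without Mettl3 cKO 0 h replicate 2 (−0.16, adjusted p = 0.0628) or 2 h replicate 2 (−0.18, adjusted p = 0.0654), and the latter without 6 h replicate 1 (−0.17, adjusted p = 0.0704).

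Ythdf3 had the smallest difference of the 3 cytoplasmic paralogues at 0 h and showed no fall in Mettl3 cKO that passed the test. Ythdf3 lies on the plus strand of chromosome 3, from 16183212 to 16217037. In Control it had 153 and 166 CPM at 0 h, 105 and 95.5 at 2 h, and 53.2 and 50.2 at 6 h. In Mettl3 cKO it had 233 and 220 CPM at 0 h, 222 and 209 at 2 h, and 217 and 212 at 6 h. The groups did not overlap at any time, and the ratio of the mean CPM widened over the 3 times from 1.42 to 2.15 and 4.16. The log2 difference was 0.47 (SE 0.061), 0.99 (SE 0.062) and 1.77 (SE 0.065), with adjusted p = 4.57e-07, 5.38e-13 and 5.61e-18 by edgeR's quasi-likelihood test. Of the mean CPM at 0 h, 32.5% was left at 6 h in Control, a half-life of 3.75 h (95% interval 3.38 to 4.22 h, or 3.0 h from 0 to 2 h alone), and 94.9% in Mettl3 cKO. The slope in Mettl3 cKO was −0.011 log2 per hour (95% interval −0.039 to 0.017, edgeR's quasi-likelihood test, adjusted p = 0.494), too flat for a half-life. Relative to the other genes (TMM), Ythdf3 rose in Mettl3 cKO from 2 to 6 h by 0.16 (adjusted p = 0.0395), where total counts gave −0.0069.

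Ythdc1, the nuclear reader, was also higher in Mettl3 cKO but fell there nearly as fast as in Control. It lies on the plus strand of chromosome 5, from 86804221 to 86836659. In Control it had 78.9 and 80.4 CPM at 0 h, 41.2 and 41.4 at 2 h, and 17.9 and 18.1 at 6 h. The Mettl3 cKO libraries had 121 and 124 CPM at 0 h, 69.8 and 72.5 at 2 h, and 33.7 and 34.8 at 6 h. The groups did not overlap at any time, with ratios of the mean CPM of 1.54, 1.72 and 1.90. The log2 difference was 0.58 (SE 0.062) at 0 h, 0.67 (SE 0.067) at 2 h and 0.64 (SE 0.077) at 6 h (edgeR's quasi-likelihood test, adjusted p = 1.59e-08, 3.30e-09 and 5.71e-08). Its half-life was 2.84 h in Control (95% interval 2.54 to 3.22 h, or 2.11 h from 0 to 2 h alone) and 3.32 h in Mettl3 cKO (95% interval 2.93 to 3.82 h). At 6 h 22.6% of the 0 h level was left in Control and 27.9% in Mettl3 cKO.

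Ythdc2 had the lowest level of the 5 per kilobase of exon at 0 h in both genotypes and was the only one with no increase called in Mettl3 cKO at any time with TMM. It lies on the plus strand of chromosome 18, from 44827746 to 44889724. In Control it had 43.8 and 49.0 CPM at 0 h, 42.4 and 36.1 at 2 h, and 17.7 and 16.5 at 6 h. Mettl3 cKO had 44.3 and 44.8 CPM at 0 h, 35.4 and 32.8 at 2 h, and 19.1 and 21.5 at 6 h. The genotypes overlapped at 0 h, while at 2 h both Mettl3 cKO libraries were below both Control libraries and at 6 h both were above them. The log2 difference was −0.10 (SE 0.085, edgeR's quasi-likelihood test, adjusted p = 0.334) at 0 h, −0.32 (SE 0.088, adjusted p = 0.00297) at 2 h and −0.038 (SE 0.10, adjusted p = 0.752) at 6 h. The lower level at 2 h was not called with total counts (−0.20, adjusted p = 0.0578), with scaling to the ribosomal protein mRNAs (−0.24, adjusted p = 0.0605) or without Control 2 h replicate 1 (−0.21, adjusted p = 0.109). At 6 h the direction turned with total counts (0.25, adjusted p = 0.0375). The half-life was 4.03 h in Control (95% interval 3.37 to 5.0 h, or 8.33 h with an interval of 4.71 to 35.8 h from 0 to 2 h alone) and 5.30 h in Mettl3 cKO (95% interval 4.25 to 7.05 h).

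Over the 5 genes, 4 were called higher in Mettl3 cKO and 0 lower at 0 h, against 29.6% higher and 25.5% lower of all genes tested. The YTH domain genes were chosen with earlier results of these data known. Their shares against all genes, here and below, are thus a description and not an independent test. At 2 h 4 were higher and 1 lower (32.3% and 28.6% of all genes), and at 6 h 4 were higher and 0 lower (35.4% and 33.1% of all genes). The scaling shifted these comparisons, since the median log2 difference of all genes was 0.028, 0.033 and 0.031 at 0, 2 and 6 h with TMM and 0.068, 0.15 and 0.32 with total counts. With total counts 4627 genes were higher and 3261 lower at 0 h, 5474 and 3092 at 2 h, and 6723 and 2873 at 6 h, where TMM gave 4286 and 3691, 4680 and 4139, and 5135 and 4797. Scaling to the ribosomal protein mRNAs gave 4519 and 2517 at 0 h. Ythdf1, Ythdf2, Ythdf3 and Ythdc1 stayed higher at all 3 times under total counts, with log2 differences at 6 h of 3.61, 4.85, 2.06 and 0.93. Where the ranges of the genotypes did not overlap, this rested on 2 libraries a group, and its share over all genes was not counted.

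**Figure D2:**
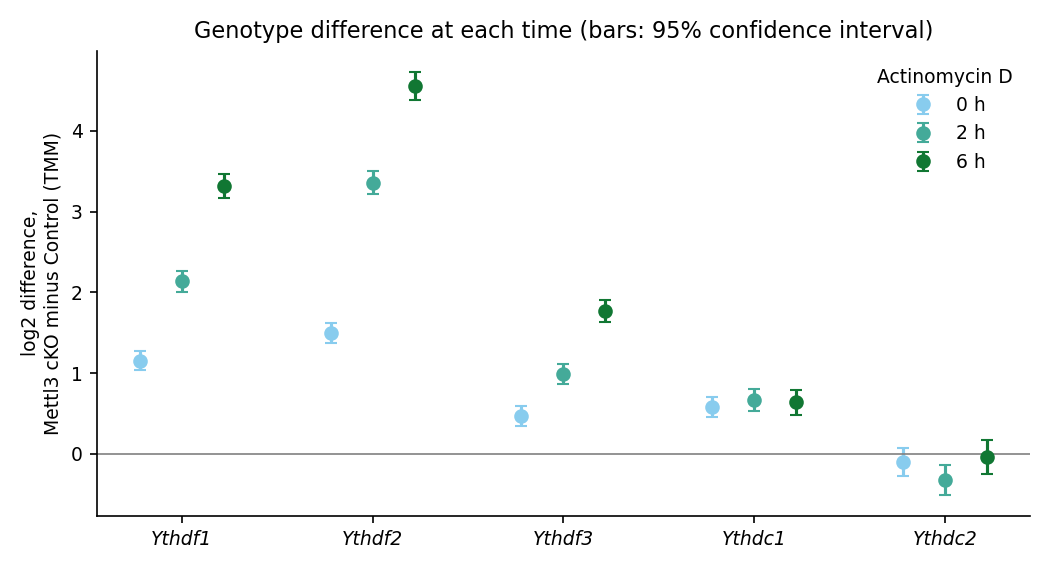
Log2 difference between Mettl3 cKO and Control (TMM) at 0, 2 and 6 h of actinomycin D for each gene, with bars for the 95% confidence interval of the fit. The values of Ythdf1, Ythdf2 and Ythdf3 step up with time to 3.32, 4.56 and 1.77, those of Ythdc1 lie between 0.58 and 0.67, and those of Ythdc2 lie below 0, although at 6 h the value of Ythdc2 was 0.25 with total counts.

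The markers of other liver cells differed between the genotypes as well. The summed CPM of 6 macrophage markers, 5 of them with at least 10 reads in every library, at 0 h was 156 to 159 in Control against 342 to 379 in Mettl3 cKO, then 189 to 211 against 388 to 403 at 2 h and 86.5 to 106 against 243 to 263 at 6 h, with Vsig4 at 0 in 1 library. Of 6 endothelial markers, 4 had at least 10 reads in every library, and their sum at 0 h was 194 to 207 CPM in Control against 226 to 251 in Mettl3 cKO, then 129 to 133 against 114 to 146 at 2 h and 11.9 to 13.2 against 35.3 to 41.9 at 6 h, with Clec4g at 0 in 1 library. The 6 stellate cell markers summed to 124 to 162 CPM in Control at 0 and 2 h and 167 to 220 in Mettl3 cKO, and to 104 to 108 and 194 to 202 at 6 h. The 5 bile duct markers, 4 of them at 10 reads or more throughout, went the other way, with 184 to 330 CPM in Control and 51.2 to 72.4 in Mettl3 cKO. The 5 blood cell markers, 1 of them at 10 reads or more throughout, summed to at most 10.2 CPM in Control and 16.9 in Mettl3 cKO, with Cd3e at 0 in all 12 libraries and Cd79a in 7. The part of these cells in the levels of the YTH domain genes was not tested, and in bulk RNA a change in the number of cells of a type cannot be told apart from a change in the RNA of each cell.

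The difference in slope between the genotypes was called for the 3 cytoplasmic paralogues and not for Ythdc1 or Ythdc2, and differences between genes were not tested. Ythdf1, Ythdf2 and Ythdf3 fell more slowly in Mettl3 cKO, as 3 of the 5 genes against 24.3% of all genes tested, and 0 of the 5 fell faster against 2.57%. Of all genes, 3515 were slower and 373 faster with total counts, while TMM gave 2359 and 1578. Over all 12 libraries the slopes of Ythdf1, Ythdf2 and Ythdf3 differed by 0.40, 0.55 and 0.26 log2 per hour, with 95% intervals of 0.34 to 0.46, 0.42 to 0.69 and 0.22 to 0.30 (edgeR's quasi-likelihood test, adjusted p = 4.81e-07, 2.89e-05 and 7.77e-07). Without the 6 h libraries they differed by 0.53, 0.97 and 0.30 (adjusted p = 6.85e-10, 6.00e-14 and 8.24e-06). Ythdc1 differed by 0.050 log2 per hour (95% interval −0.0055 to 0.11, adjusted p = 0.182) and by 0.081 without the 6 h libraries (adjusted p = 0.274). Ythdc2 differed by 0.060 (95% interval −0.0059 to 0.13, adjusted p = 0.177) and by −0.073 without the 6 h libraries (adjusted p = 0.531). The median over all genes was 0.041 with total counts.

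Each interval was also tested on its own, since the Control libraries of 6 h stood apart and a straight line averages over both intervals. In Control all 5 mRNAs fell in both intervals, against 36.3% of all genes from 0 to 2 h and 48.4% from 2 to 6 h, while 12.9% and 9.83% of all genes rose. From 0 to 2 h Ythdf2 fell by 2.11, Ythdf1 by 1.24, Ythdc1 by 0.95, Ythdf3 by 0.67 and Ythdc2 by 0.24 on the log2 scale. The fall of Ythdc2 in that interval was not called with TMM (−0.070, edgeR's quasi-likelihood test, adjusted p = 0.523), with DESeq2's Wald test (−0.24, adjusted p = 0.0611), without Control 0 h replicate 2 (−0.16, adjusted p = 0.266) or without Control 2 h replicate 2 (−0.13, adjusted p = 0.350). From 2 to 6 h the order was closer, with falls of 1.62 for Ythdf2, 1.55 for Ythdf1, 1.20 for Ythdc1, 1.20 for Ythdc2 and 0.96 for Ythdf3. Of the mean CPM of Ythdc2 at 0 h in Control, 84.6% was thus left at 2 h and 36.8% at 6 h, where Ythdf2 had 23.2% and 7.53%. In Mettl3 cKO 4 of the 5 fell in each interval, all but Ythdf3, against 29.2% of all genes from 0 to 2 h and 33% from 2 to 6 h, and 12% and 8.24% of all genes rose. With TMM only Ythdc1 and Ythdc2 fell in each interval, 2 of the 5, and Ythdf3 rose from 2 to 6 h. The falls of Ythdc1 were by 0.79 and 1.05 and those of Ythdc2 by 0.39 and 0.75. With total counts the median of all genes also moved, by −0.15 and −0.39 in Control and by −0.083 and −0.17 in Mettl3 cKO, where TMM gave 0.020 and −0.054, and 0.011 and −0.0085. In Control 1865 genes rose and 5263 fell from 0 to 2 h, and 1424 and 7017 from 2 to 6 h, against 3821 and 4089, and 3949 and 4622 with TMM. In Mettl3 cKO the counts were 1743 and 4233, and 1194 and 4774, against 3089 and 3425, and 2966 and 3137 with TMM.

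The genotype effect itself changed over both intervals for the 3 Ythdf genes. From 0 to 2 h the fall was smaller in Mettl3 cKO by 1.94 for Ythdf2, 1.06 for Ythdf1 and 0.60 for Ythdf3 (SE 0.089, 0.083 and 0.087, edgeR's quasi-likelihood test, adjusted p = 9.32e-13, 2.74e-09 and 2.08e-05). These were 3 of the 5 genes, against 12.5% of all genes above 0 and 1.29% below. Ythdc1 (0.16, adjusted p = 0.293) and Ythdc2 (−0.15, adjusted p = 0.567) did not pass the test. From 2 to 6 h the values were 1.37 for Ythdf2, 1.36 for Ythdf1 and 0.95 for Ythdf3 (SE 0.11, 0.094 and 0.090, adjusted p = 3.77e-09, 3.05e-10 and 3.11e-08). Ythdc2 passed as well in this interval (0.45, SE 0.14, adjusted p = 0.0143), which made 4 of the 5 genes against 26.3% above 0 and 3.78% below, and Ythdc1 did not (0.14, adjusted p = 0.310). The call of Ythdc2 was lost with TMM (0.28, adjusted p = 0.122) and without Control 2 h replicate 1 (0.33, adjusted p = 0.109), Mettl3 cKO 2 h replicate 2 (0.40, adjusted p = 0.0646) or Mettl3 cKO 6 h replicate 2 (0.37, adjusted p = 0.0946). Every value for 2 to 6 h rests on the Control libraries of 6 h, which stood apart. Of all genes, 1816 were above 0 and 187 below for 0 to 2 h with total counts (1513 and 470 with TMM), and 3804 and 548 for 2 to 6 h (2538 and 1616 with TMM), with a median for 2 to 6 h of 0.18 (0.011 with TMM).

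Within a library the ratios of the reads of these genes to each other do not depend on its scaling, and they moved in Control. They are not corrected for length, so that only their differences between libraries compare. The log2 ratio of Ythdf2 to Ythdf1 was −0.33 and −0.30 in the Control libraries of 0 h, −1.30 and −1.05 at 2 h, and −1.36 and −1.14 at 6 h. In Mettl3 cKO it lay between −0.047 and 0.059 in all 6 libraries. The ratio of Ythdf2 to Ythdf3 went from a mean of −1.03 ± 0.10 (SD, n = 2) to −2.47 ± 0.18 and −3.14 ± 0.22 in Control, and from 0.0053 ± 0.058 to −0.099 ± 0.058 and −0.35 in Mettl3 cKO. Ythdc1 and Ythdf2 went apart in opposite directions, with the log2 ratio of Ythdc1 to Ythdf2 rising from 0.030 ± 0.036 to 1.62 ± 0.14 in Control (SD, n = 2) and dropping from −0.89 ± 0.026 to −2.30 ± 0.056 in Mettl3 cKO. The ranges of the genotypes did not overlap at any time for these 3 ratios. This rested on 2 libraries a group, and its share over other pairs of genes was not counted.

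The order of the genes by level was taken per kilobase of exon. In Control at 0 h Ythdf3 (29.7 ± 1.76 CPM per kb, SD, n = 2) and Ythdf1 (29.2 ± 0.754) overlapped, and Ythdf2 (17.1 ± 0.205), Ythdc1 (5.84 ± 0.0765) and Ythdc2 (5.23 ± 0.408) followed without overlap. In Mettl3 cKO at 0 h the order was Ythdf1 (67.0 ± 1.66 CPM per kb), Ythdf2 (49.7 ± 0.112), Ythdf3 (42.2 ± 1.80), Ythdc1 (8.98 ± 0.143) and Ythdc2 (5.02 ± 0.0355), with no neighbours overlapping. At 2 h Ythdf2 (3.96 ± 0.232) had dropped in Control to overlap with Ythdc2 (4.42 ± 0.501). By 6 h Ythdf2 was lowest in Control (1.28 ± 0.138 CPM per kb), where it overlapped with Ythdc1 (1.32 ± 0.00993), while Ythdf3 (9.64 ± 0.403) and Ythdf1 (4.20 ± 0.00323) stayed on top. In Mettl3 cKO Ythdf1 (51.3 ± 1.22 CPM per kb) remained highest at 6 h, followed by Ythdf3 (40.1 ± 0.622), Ythdf2 (37.0 ± 0.574), Ythdc1 (2.51 ± 0.0586) and Ythdc2 (2.29 ± 0.185). The order depends on the length used. Over all annotated exons Ythdc1 is 13651 bases long, against 2960 bases for the transcript with its longest coding sequence, and by the latter Ythdc1 came above Ythdf2 in Control at 0 h (26.9 against 18.9 CPM per kb).

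The summed mRNA of the 3 cytoplasmic paralogues was 76.0 ± 0.804 CPM per kb at 0 h in Control, against 159 ± 0.259 in Mettl3 cKO (SD, n = 2). In Control it went down to 35.0 ± 1.79 at 2 h and 15.1 ± 0.262 at 6 h, against 143 ± 2.38 and 128 ± 0.0221 in Mettl3 cKO. Ythdf2 made up 22.5% of the sum in Control at 0 h, 11.3% at 2 h and 8.50% at 6 h, while in Mettl3 cKO it made up 31.3%, 30.8% and 28.8%. The share of Ythdf3 grew from 39.1% to 53.4% and 63.7% in Control, and from 26.6% to 28.1% and 31.2% in Mettl3 cKO. Ythdf3 was thus the main Ythdf mRNA in Control after the drug, and Ythdf1, at 42.2%, 41.1% and 39.9%, was the main one in Mettl3 cKO. Sums and shares also depend on the length used. By the transcript with the longest coding sequence, Ythdf1 (42.7 CPM per kb) came above Ythdf3 (32.3) in Control at 0 h. At 2 h Ythdf3 (20.3) was by that length only a little above Ythdf1 (18.0) in Control.

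**Figure D3:**
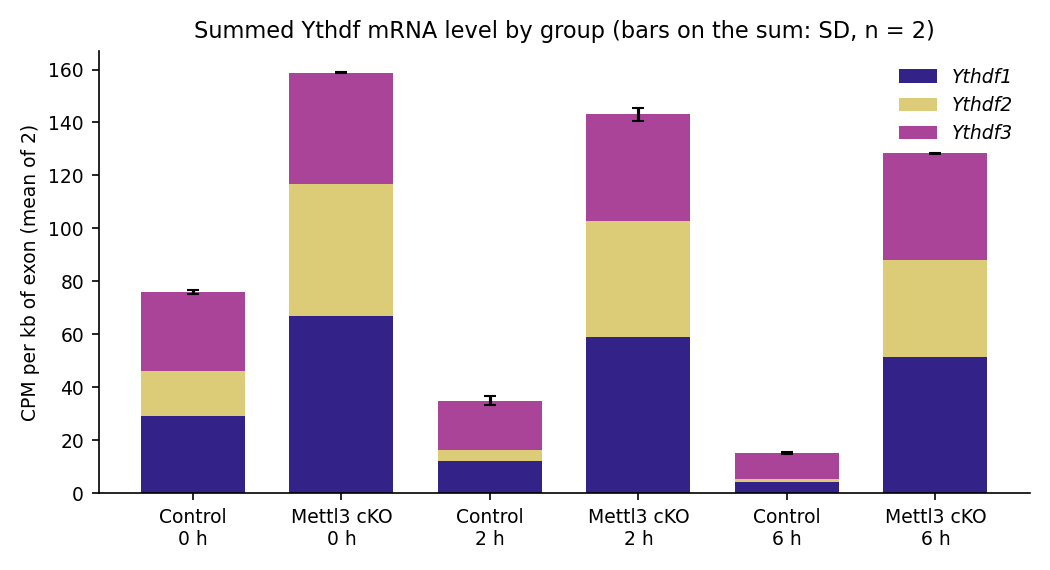
Summed level of the Ythdf1, Ythdf2 and Ythdf3 mRNAs in CPM per kilobase of exon (mean of 2 libraries, stacked by gene, bars on the sum for the SD) for both genotypes by hours of actinomycin D. The Control sum shrinks from 76.0 to 15.1 and becomes mostly Ythdf3, while the Mettl3 cKO sum goes from 159 to 128 and holds 39.9% Ythdf1, 28.8% Ythdf2 and 31.2% Ythdf3 at 6 h.

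For each gene the 3 genes with the most similar course over the 12 libraries were taken from 8625 genes that averaged 10 CPM or more, by the root mean square difference of log2(CPM + 0.5) after centring each gene on its own mean, as a description. Nearest to Ythdf1 were Fam83h (0.0702), Nupl2 (0.115) and Tmcc3 (0.119), where Ythdf2 itself lay at 0.541. Nearest to Ythdf2 were Klhl25 (0.146), Brf2 (0.174) and Mad2l1bp (0.196). Klhl25, which encodes an adaptor of a ubiquitin ligase, went from a mean of 20.7 CPM to 1.23 in Control and from 66.8 to 48.4 in Mettl3 cKO over the time course. Pdzd8 (0.0703), Aftph (0.0751) and Fam179b (0.0755) were nearest to Ythdf3. For Ythdc1 they were Mlxip (0.127), Nup98 (0.131), which encodes a nuclear pore protein, and Arhgef10l (0.133), and for Ythdc2 Haus2 (0.0840), Npepps (0.0909) and Pawr (0.105). In the same order of times Nup98 had means of 146, 74.2 and 30.6 CPM in Control and 187, 109 and 65.8 CPM in Mettl3 cKO.

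Other genes of the m6A pathway were set beside the readers in 3 lists. The lists were also chosen with earlier results of these data known. Their counts against all genes are thus a description and not an independent test. Of 13 writers and erasers, 7 fell more slowly in Mettl3 cKO and 0 faster, against 24.3% slower and 2.57% faster of all genes tested, with a median slope difference of 0.13 log2 per hour against 0.041 over all genes. These counts were also 7 and 0 with TMM and from the 0 and 2 h libraries alone. Of all 14488 genes, 2359 were slower and 1578 faster with TMM, and 1952 and 231 from the 0 and 2 h libraries alone. The 7 were the subunits of the writer complex Rbm15b (0.41), Rbm15 (0.31), Wtap (0.19), Mettl3 (0.17) and Virma (0.13), the demethylase Alkbh5 (0.15) and the separate methyltransferase Mettl16 (0.10), with adjusted p from 1.03e-06 to 0.00367 by edgeR's quasi-likelihood test. Mettl3 is itself the deleted gene, and its counts include exons outside the deletion, so that its slopes may not compare like transcripts. Cbll1, another subunit of the complex, had 0.27 (SE 0.10) and did not pass (adjusted p = 0.0609). Rbm15b was lower in Mettl3 cKO at 0 h (−0.42, adjusted p = 2.41e-05) and higher at 6 h (1.77, adjusted p = 2.23e-15), a course that none of the YTH domain genes had, while Rbm15 was higher at both (0.81 and 2.48, adjusted p = 1.07e-09 and 5.57e-18).

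Of 9 readers without a YTH domain, such as the Igf2bp proteins, 0 fell more slowly and 0 faster by edgeR's quasi-likelihood test. Their slope differences ran from −0.14 to 0.097, with a median of −0.0017 log2 per hour. With TMM 1 fell faster (1578 of all 14488 genes), and 1 did from the 0 and 2 h libraries alone (231 of all genes). At 0 h 4 of these 9 were lower in Mettl3 cKO with TMM and 0 higher (25.5% and 29.6% of all genes). At 6 h 6 were lower with TMM and 0 higher (33.1% and 35.4% of all genes). They were not counted with total counts, which at 6 h put the median of all genes at 0.32, against 0.031 with TMM. Of 18 tested genes for partners of the YTH proteins, 5 fell more slowly and 0 faster, a share near the 24.3% slower of all genes, with a median of 0.024. TMM gave 3 slower and 2 faster (2359 and 1578 of all genes), and the 0 and 2 h libraries alone gave 1 and 1 (1952 and 231 of all genes). The 5 were among the 11 CCR4-NOT genes of the list, of which the other 6 did not pass, and were Cnot8 (0.17), Cnot2 (0.13), Cnot11 (0.12), Cnot6l (0.083) and Cnot9 (0.054), with adjusted p from 1.64e-04 to 0.0235. By level with TMM, 2 of the 18 partners were higher in Mettl3 cKO and 9 lower at 0 h (29.6% and 25.5% of all genes). At 6 h 5 were higher and 10 lower (35.4% and 33.1% of all genes), and these too were not counted with total counts. Cnot1, the scaffold that Ythdf2 binds, did not pass (−0.022, adjusted p = 0.371) and was lower in Mettl3 cKO at 0 h (−0.36, adjusted p = 1.62e-06) and 6 h (−0.77, adjusted p = 3.23e-12). Rida, whose human counterpart HRSP12 links YTHDF2 to the endonuclease RNase P/MRP, did not pass the test for the slope (0.0012, SE 0.039, adjusted p = 0.988) and was lower at 0, 2 and 6 h by −1.87, −1.77 and −2.06 on the log2 scale (adjusted p = 1.82e-15, 4.86e-16 and 7.15e-18). Xrn1, the exonuclease that binds Ythdc2, had a slope difference of 0.048 (adjusted p = 0.189).

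**Figure D4:**
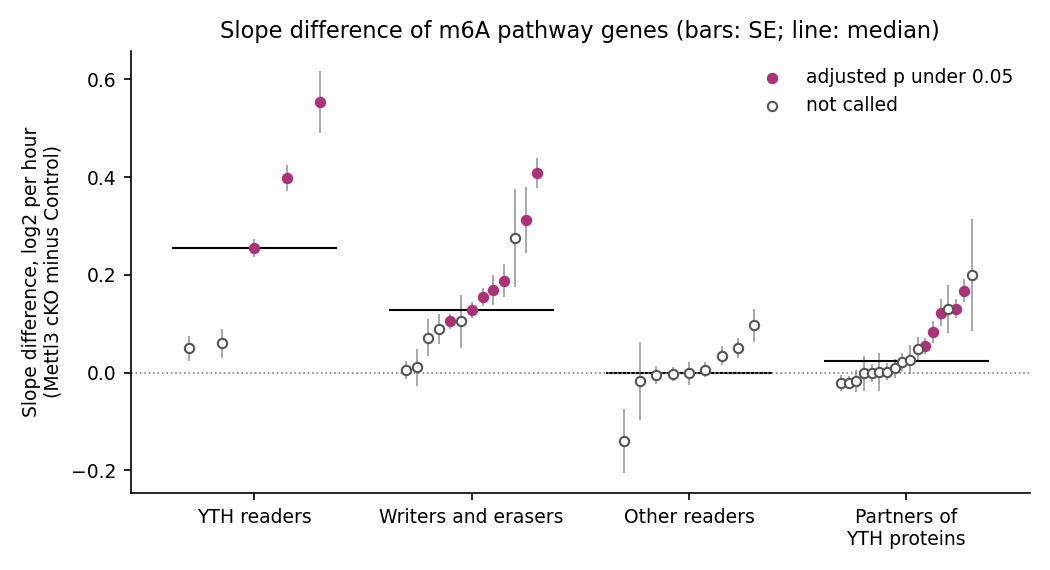
Slope difference between Mettl3 cKO and Control in log2 per hour for the 5 YTH domain genes, 13 writers and erasers, 9 other readers and 18 partners, with bars for the SE, filled points for an adjusted p under 0.05 and lines at each list's median. The YTH median is 0.26, that of writers and erasers 0.13, and those of the other readers and the partners lie at −0.0017 and 0.024.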

How the data were processed

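RNA sequencing of primary mouse hepatocytes was analysed, with 12 libraries in 6 groups of 2. Per the labels and the study's methods, the authors prepared poly(A) libraries without strand information and mapped reads to mm10 (STAR 2.5.3a). Reads with a single mapping position were retained and summed over the exons of each Gencode gene (featureCounts 2.0.1), from a release that the sources used here do not name. The deposited values are raw counts of reads per gene, with no normalization, and 0 columns were left unmatched to a sample. No 2 replicates were duplicates (chi-square of 2.14 to 9.16 per gene).

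Low genes were removed with filterByExpr, using the 6 groups, a count of 10 and a total of 15 as minimums. Slopes, changes within a genotype and intervals were tested by the quasi-likelihood method of edgeR 4.0.16 (R 4.3.3) with total counts as library sizes, and the genotypes at each time with TMM, over all 12 libraries, with Benjamini-Hochberg adjustment over 14488 genes and a threshold of 0.05. Intervals are at 95%, and half-lives are those of the fitted slopes, with Control half-lives from the fitted change over 0 to 2 h added after the data were seen. The members and lists were chosen with earlier results of these data known. Named genes were the 5 members, Mettl3, listed genes with the largest called slope differences and uncalled direct partners (Cbll1, not called, was added after its value was seen), and the 3 nearest genes by course, without predicted genes. Virma and Cnot9 carry older names in the table and were matched by Ensembl ID. The marker lists were hepatocyte, macrophage, endothelial, stellate, bile duct and blood.

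Alternatives were other scalings (TMM or total counts, DESeq2 size factors, ribosomal protein or mitochondrially encoded mRNAs), no filter, DESeq2 1.42.0's Wald test, fewer time points, only the libraries compared, each library left out in turn and the replicate number as a block. On simulated data of 14488 genes, 47% of slope differences of 0.1 log2 per hour and 88% of those of 0.3 were recovered, with 13 unchanged genes called. For the genotypes at 0 h, 58% of log2 differences of 0.5 and 81% of those of 1 were recovered, with 13 unchanged genes called. The simulations changed few genes, as many up as down, with no fall over time in the others, unlike the data. These rates thus check the method and do not give its power or error in these libraries. Sequences and exon lengths came from the Gencode annotation of mm10.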

Additional observations from a re-analysis of the deposited data

Results flagged for a closer look

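The genotype effect of 3 genes differed between 0 and 2 h by a test of the difference itself (edgeR's quasi-likelihood test), by 1.06 for Ythdf1, 1.94 for Ythdf2 and 0.60 for Ythdf3 on the log2 scale. Between 2 and 6 h it differed for 4 genes, by 1.36 for Ythdf1, 1.37 for Ythdf2, 0.95 for Ythdf3 and 0.45 for Ythdc2. In each case the level fell less in Mettl3 cKO, and the 2 to 6 h values rest on the Control 6 h libraries, which differed from all others in Xist and Ddx3y.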

How the results depend on the processing

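The slope and genotype differences of Ythdf1, Ythdf2 and Ythdf3 kept their direction and call under all alternatives run, with slopes differing by 0.34 to 0.53, 0.34 to 0.97 and 0.21 to 0.30 log2 per hour. Of the values for single genes, 103 of 105 slope differences, 159 of 165 genotype differences, 122 of 140 changes within a genotype and 135 of 140 interval differences kept direction and call, and 77 of 90 list counts stayed within 1.5 times. Where values changed, the cause was not tested. With 2 libraries a group, small differences such as those of Ythdc2 are within the reach of a single library.

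For Ythdc2 the slope difference was −0.073 from 0 and 2 h and 0.11 (adjusted p = 0.0155) from 2 and 6 h alone. Its genotype difference was −0.20 at 2 h and 0.25 at 6 h with total counts, and −0.24 and 0.24 with ribosomal protein mRNAs as the standard. Its change from 0 to 2 h in Control was −0.070 with TMM and −0.24 (adjusted p = 0.0611) with DESeq2, and its interval difference from 2 to 6 h was 0.28 with TMM. With TMM the changes in Mettl3 cKO from 0 to 2 h were −0.094 for Ythdf1, −0.079 for Ythdf2 and 0.026 for Ythdf3, those from 2 to 6 h were −0.036, −0.090 and 0.16, and the interval difference of Ythdc1 from 2 to 6 h was −0.029. With TMM 1 other reader fell faster, 3 partners slower and 2 faster, and from 0 and 2 h alone 1 other reader fell faster, 1 partner slower and 1 faster. Control half-lives from 0 to 2 h alone lay outside the intervals of the straight line for every YTH domain gene.

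With each library left out in turn, the lone library of a group being assumed to vary like the other groups, Ythdc2 had genotype differences of −0.42 to −0.21 at 2 h and −0.12 to 0.044 at 6 h, a Control change from 0 to 2 h of −0.36 to −0.13, and an interval difference from 2 to 6 h of 0.33 to 0.56. The changes in Mettl3 cKO ranged from −0.21 to −0.16 (Ythdf1) and −0.18 to −0.17 (Ythdf2) for 0 to 2 h, and from −0.22 to −0.17 (Ythdf1) and −0.049 to 0.037 (Ythdf3) for 2 to 6 h. Other readers called slower numbered 0 to 2 and partners 3 to 5, with 3 without Control 6 h replicate 2 or Mettl3 cKO 6 h replicate 2.

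Over all genes, slower and faster slopes numbered 3515 and 373 with total counts, 2359 and 1578 with TMM, 2286 and 1860 with DESeq2 size factors, 3878 and 55 with mitochondrially encoded mRNAs as the standard, 1952 and 231 from 0 and 2 h, and 3801 and 566 from 2 and 6 h. Genes lower at 6 h numbered 4797 with TMM, 2873 with total counts and 2670 with ribosomal protein mRNAs as the standard.

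Same-numbered replicates did not deviate together (correlations of −0.17 to 0.061, and −0.068 to 0.028 between the genotypes at a time), so the numbers were not taken as pairs. With the replicate block 56 of 56 values kept direction and call, with a slope difference of 0.55 for Ythdf2.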
